A study of Homo sapiens with 15 samples.

Results

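The genes described here are 9 genes of the epithelial-mesenchymal transition (EMT) program: the transcription factor genes SNAI1, SNAI2, TWIST1, TWIST2, ZEB1, ZEB2 and PRRX1, and the effector genes VIM (vimentin) and FN1 (fibronectin). They were chosen by symbol, as the rows of both deposited count tables whose Ensembl identifiers carry these names in GENCODE 44, and all 9 were found among the 62700 genes of each table. RNA was sequenced from 15 libraries of 143B, an established human osteosarcoma cell line, with 3 libraries in each of 5 groups. The OSC group (osteosarcoma stem cells) was grown as tumorspheres in serum-free medium with the growth factors EGF and basic FGF, and the non-OSC group as adherent cells in medium with fetal bovine serum, both with the WT genotype. The shCtrl, shPDK1#1 and shPDK1#2 groups were OSCs infected with lentivirus carrying a control hairpin or a hairpin against PDK1, a kinase that inhibits the pyruvate dehydrogenase complex. All OSC libraries came from spheres and all non-OSC libraries from adherent culture, so cell state, culture format and medium cannot be told apart. The labels number 3 samples per group without saying that they were separate cultures, so the p-values measure the spread between these samples, which may be technical. In these bulk samples, fewer cells of a type and less RNA per cell cannot be told apart either.

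In carcinomas, EMT is the program by which epithelial cells lose their junctions and gain motility. SNAIL (SNAI1) and SLUG (SNAI2) are zinc finger repressors, ZEB1 and ZEB2 are zinc finger and homeodomain repressors, TWIST1 and TWIST2 are basic helix-loop-helix factors, and PRRX1 is a paired-type homeodomain factor. SNAIL and ZEB proteins bind E-box elements in the promoters of epithelial genes such as CDH1 (E-cadherin). Vimentin forms the intermediate filaments of mesenchymal cells, and fibronectin is a matrix glycoprotein bound by integrins. The study describes the origin of osteosarcoma as unclear, with cells of the osteoblast lineage, which derive from mesenchymal stem cells, as the likely source. Whether an epithelial state preceded the expression of these genes was not tested.

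The promoters of some members that moved in the comparisons are shown here with the motifs that were searched, because SNAIL and ZEB proteins bind E-boxes. RefSeq windows of 300 bases on GRCh38.p14, with 250 bases before the start and 50 from it, were matched for 6 of the 9 genes (TWIST2, ZEB1, ZEB2, PRRX1, VIM and FN1, 12 windows in all, of which 7 belong to ZEB1). SNAI1, SNAI2 and TWIST1 were not matched. Each window was searched on both strands for CACCTG (the E-box form bound by SNAIL and ZEB proteins, CAGGTG on the other strand), for CANNTG (any E-box, which includes CACCTG), for TGACGTCA (the cyclic AMP response element) and for TGACTCA (the AP-1 element). Of 35116 RefSeq promoter windows of this length, 20.6% held CACCTG, 68.7% CANNTG, 1.85% TGACGTCA and 4.95% TGACTCA. Capitals mark CACCTG or CAGGTG in the ZEB1 windows and TGACGTCA in the FN1 window, and the VIM and TWIST2 windows held none of the motifs. Windows not shown are those of ZEB1 starts 2, 4, 5, 6 and 7, which held no CACCTG, and of PRRX1 and ZEB2. The PRRX1 window held none of the motifs, and the ZEB2 window held CANNTG only. Of the ZEB1 windows not shown, those of starts 5 and 7 held CANNTG only and those of starts 2, 4 and 6 none of the motifs.
ZEB1, start 3 of 7, chr10:31318966-31319265, plus strand: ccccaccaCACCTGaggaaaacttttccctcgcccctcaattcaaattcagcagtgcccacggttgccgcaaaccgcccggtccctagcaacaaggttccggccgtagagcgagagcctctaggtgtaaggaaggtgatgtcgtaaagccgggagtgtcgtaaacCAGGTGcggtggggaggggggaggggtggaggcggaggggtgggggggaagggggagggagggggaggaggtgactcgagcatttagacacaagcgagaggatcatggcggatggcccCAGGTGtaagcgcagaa
ZEB1, start 1 of 7, chr10:31318167-31318466, plus strand: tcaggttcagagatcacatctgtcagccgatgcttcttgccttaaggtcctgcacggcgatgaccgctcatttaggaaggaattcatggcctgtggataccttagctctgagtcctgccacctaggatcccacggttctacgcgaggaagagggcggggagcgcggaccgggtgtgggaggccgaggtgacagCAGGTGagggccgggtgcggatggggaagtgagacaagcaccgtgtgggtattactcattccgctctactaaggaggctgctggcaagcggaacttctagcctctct
FN1, chr2:215436019-215436318, minus strand: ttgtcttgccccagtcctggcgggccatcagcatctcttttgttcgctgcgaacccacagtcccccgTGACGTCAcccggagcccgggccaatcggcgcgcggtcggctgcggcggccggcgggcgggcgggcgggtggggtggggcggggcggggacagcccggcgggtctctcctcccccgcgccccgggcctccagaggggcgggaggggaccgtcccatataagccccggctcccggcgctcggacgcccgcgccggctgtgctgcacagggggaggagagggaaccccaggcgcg
TWIST2, chr2:238847835-238848134, plus strand: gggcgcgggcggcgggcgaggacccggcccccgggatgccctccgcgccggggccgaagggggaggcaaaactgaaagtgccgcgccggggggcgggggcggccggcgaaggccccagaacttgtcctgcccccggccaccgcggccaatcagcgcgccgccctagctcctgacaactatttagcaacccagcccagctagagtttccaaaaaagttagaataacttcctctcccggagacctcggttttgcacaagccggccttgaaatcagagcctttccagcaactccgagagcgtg
VIM, chr10:17227991-17228290, plus strand: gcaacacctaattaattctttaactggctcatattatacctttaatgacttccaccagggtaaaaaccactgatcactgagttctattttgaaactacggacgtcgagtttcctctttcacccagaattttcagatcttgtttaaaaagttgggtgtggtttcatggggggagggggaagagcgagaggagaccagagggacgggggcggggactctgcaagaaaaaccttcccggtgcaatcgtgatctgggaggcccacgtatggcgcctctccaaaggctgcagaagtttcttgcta
The window of ZEB1 start 3 held CACCTG in 3 places, whose first bases lie 242 and 85 bases before the start and 34 bases after it, and that of start 1 held it 57 bases before the start. The FN1 window held TGACGTCA 183 bases before the start. A match describes the letters only and is not a binding site.

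Library totals ran from 7992499 to 10495051 counts in the 6 libraries of the culture experiment and from 8073055 to 11256536 in the 9 libraries of the hairpin experiment. The experiments were deposited as separate tables and were tested separately, so levels are compared only within a table. All 9 genes passed the filter on low counts in both, among 14287 and 14574 genes tested. Per library, SNAI1 had between 45 and 134 counts and is the least precise member, while VIM had between 36220 and 59783. The cells carried part of the osteoblast lineage markers: COL1A1, SPP1 and RUNX2 had over 100 counts in every library, whereas IBSP had 0 and SP7 at most 1. The targeted gene PDK1 was at 62.0% of its shCtrl level in shPDK1#1 (log2 fold change -0.69, standard error SE = 0.083) and at 43.7% in shPDK1#2 (-1.19, SE 0.086), and its level also differed between the hairpins (-0.50, adjusted p = 0.00024).

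Compared per length (counts per kilobase of annotated exon, scaled to the same total in every library), VIM stood first and FN1 second in all 5 groups. In non-OSCs, VIM had 3015 ± 77.8 and FN1 836.3 ± 12.1 on this scale (SD, n = 3). TWIST2 followed with 146.7 ± 2.25, then PRRX1 with 66.2 ± 4.56. The order of TWIST2 and PRRX1 differed between groups: TWIST2 was 2.22 times PRRX1 in non-OSCs, their ranges overlapped in OSCs, and PRRX1 was above TWIST2 without overlap in the 3 hairpin groups (by 1.32, 1.42 and 1.61 times in shCtrl, shPDK1#1 and shPDK1#2). SNAI2 and TWIST1 were neighbours in every group, and their library ranges overlapped in all groups but non-OSC, where SNAI2 was 1.14 times TWIST1. ZEB1 came seventh, SNAI1 eighth and ZEB2 last in all 5 groups, ZEB2 with group means between 6.24 and 8.65. SNAI1 and ZEB1, otherwise separate, overlapped in shPDK1#2, as did ZEB1 with SNAI2 in OSCs and with TWIST1 in shCtrl. With the length of the longest transcript instead of the union of exons, between 32 (OSC) and 36 (shPDK1#1) of the 36 pairs kept their order. The lower end of the order turned with that length: ZEB2, whose level then lay between 12.2 and 17.0, was above SNAI1 in OSCs without overlap and in non-OSCs with overlap. In OSCs, PRRX1 was then above TWIST2 and ZEB1 above SNAI2, both without overlap.

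**Figure D1:**
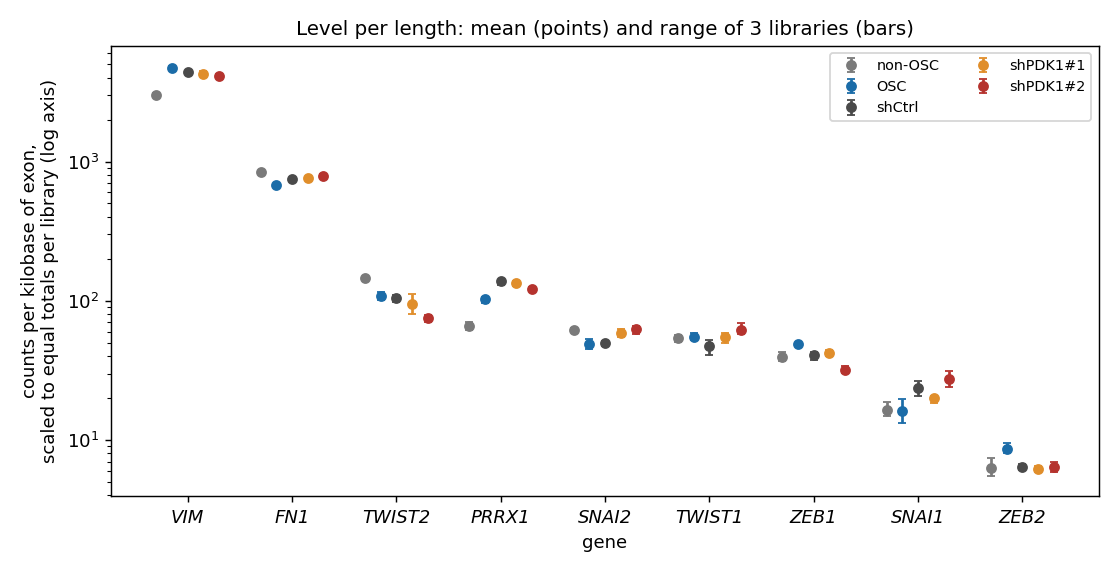
Level of each gene per kilobase of annotated exon, scaled to the same total in every library, on a log axis. Points are means of 3 libraries and bars run from the lowest to the highest library, in the 5 groups. VIM lies above FN1 everywhere, PRRX1 lies above TWIST2 within each hairpin group, and ZEB2 is lowest on this scale. The culture and hairpin groups are separate experiments. With the longest transcript as length, PRRX1 is above TWIST2 in OSCs too.

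OSCs were compared with non-OSCs to ask how the EMT genes stand in the stem-like culture. VIM, PRRX1, ZEB2 and ZEB1 were higher in OSCs, and TWIST2, SNAI2 and FN1 were lower. The fold changes were moderate, the largest being 1.48-fold for VIM. SNAI1 and TWIST1 did not pass the threshold. The call of 7 of the 9 genes stands beside 63.9% of all genes tested that were called (edgeR's quasi-likelihood test, Benjamini-Hochberg adjusted p under 0.05), so the share among the EMT genes was near the background. In each direction, 32.4% of all genes were higher and 31.5% lower. OSC and non-OSC libraries were fully apart in 7 of the 9 genes and in 66.9% of all genes tested. The median size of the log2 fold change was 0.38 over the 9 genes and 0.44 over all genes tested. The differences had no common direction, with 4 higher and 3 lower.

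**Figure D2:**
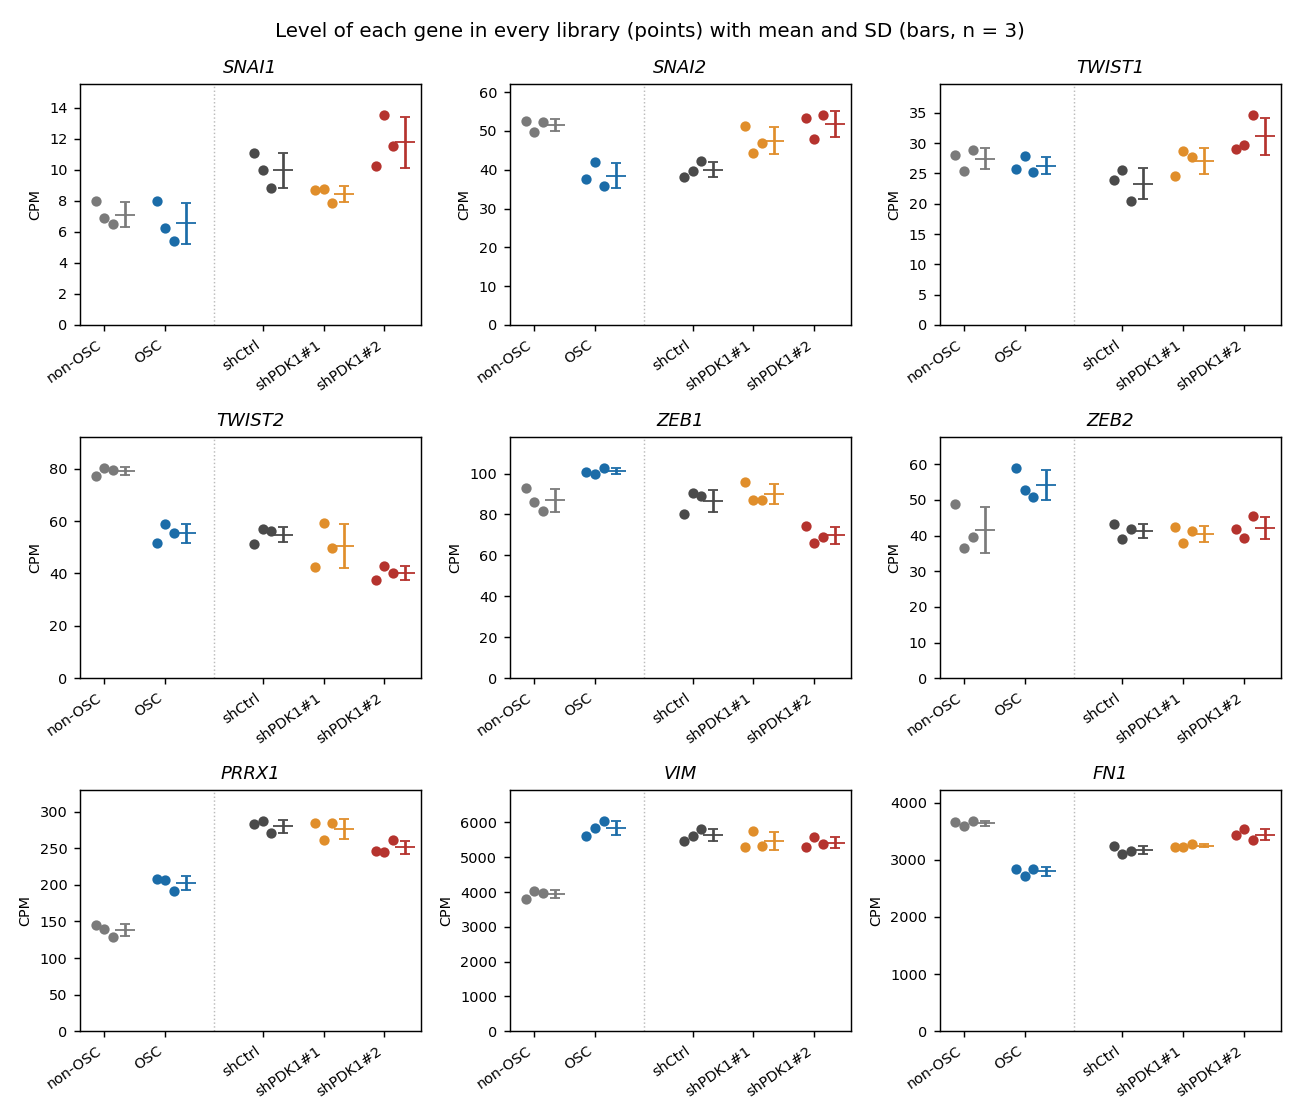
Level of each of the 9 genes in CPM (counts relative to library size after TMM normalization), with 1 panel per gene. Points are single libraries, bars the mean and SD of 3 libraries, and the dotted line separates the culture experiment from the hairpin experiment, which were normalized apart. The OSC and non-OSC points are fully apart in all panels except SNAI1 and TWIST1, and the shPDK1#2 points lie below those of shCtrl in TWIST2, ZEB1 and PRRX1.

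Among the zinc finger repressors, SNAI2 (ENSG00000019549.13, chromosome 8) had 52.5, 49.8 and 52.2 CPM (counts relative to library size after TMM normalization) in the 3 non-OSC libraries and 37.6, 42.0 and 35.7 CPM in the 3 OSC libraries. All OSC libraries lay under all non-OSC libraries, and the log2 fold change was -0.42 (SE 0.083, adjusted p = 0.000146). SNAI1 (ENSG00000124216.4, chr20:49982980-49988886, 3 exons) had 7.99, 6.88 and 6.49 CPM in non-OSCs and 7.99, 6.26 and 5.42 CPM in OSCs. Its groups overlapped, and the 95% interval of its log2 fold change ran from -0.53 to 0.28, which includes the -0.42 of SNAI2.

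ZEB1 (ENSG00000148516.23, chr10:31318495-31529814), a repressor that blocks epithelial junction genes, had 92.9, 86.2 and 81.6 CPM in non-OSCs and 101 ± 1.44 CPM in OSCs (SD, n = 3). The OSC libraries were all above the non-OSC libraries, and the rise was small (log2 fold change 0.22, SE 0.063, adjusted p = 0.00495). ZEB2 (ENSG00000169554.23, chr2:144364364-144521057), its paralog, rose from 48.9, 36.5 and 39.6 CPM to 58.9, 52.8 and 50.9 CPM, a log2 fold change of 0.37 (SE 0.097, adjusted p = 0.002). The first non-OSC library was closest to the OSC group for ZEB2, without overlap. Of the ZEB2 sequence, 0.0255% of the stretches of 75 bases also occur in the pseudogene ZEB2P1, and the other 8 genes share none with another annotated gene.

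The basic helix-loop-helix pair split. TWIST2 (ENSG00000233608.5, chr2:238848032-238910534, 2 exons), known to hold back osteoblast differentiation, had 77.3, 80.2 and 79.6 CPM in non-OSCs and 51.5, 58.8 and 55.4 CPM in OSCs. The groups were far apart relative to their spread, with a log2 fold change of -0.51 (SE 0.07, adjusted p = 1.51e-06), the largest fall among the 9 genes. TWIST1 (ENSG00000122691.13, chr7:19020991-19117636), a factor active in cranial suture and mesoderm development, had 28.0, 25.4 and 28.9 CPM in non-OSCs and 25.7, 27.9 and 25.2 CPM in OSCs. The groups overlapped, and the interval of the log2 fold change was -0.26 to 0.14.

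PRRX1 (ENSG00000116132.12, chr1:170662728-170739421), a homeobox factor of limb and skeletal mesenchyme, rose from 145.2, 139.4 and 129.3 CPM to 208.0, 206.8 and 190.9 CPM. All OSC libraries were above all non-OSC libraries, with a log2 fold change of 0.55 (SE 0.056, adjusted p = 2.16e-08). VIM (ENSG00000026025.16, chr10:17228241-17237593, 10 exons) had 3809, 4039 and 3982 CPM in non-OSCs and 5624, 5852 and 6028 CPM in OSCs, a log2 fold change of 0.57 (SE 0.033, adjusted p = 2.02e-12). FN1 (ENSG00000115414.21, chr2:215360440-215436073, 46 exons) moved the other way, from 3660, 3583 and 3670 CPM in non-OSCs to 2836, 2709 and 2840 CPM in OSCs. The groups did not overlap for either effector, and the log2 fold change of FN1 was -0.38 (SE 0.032, adjusted p = 8.2e-10).

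The knockdown groups, in which part of the PDK1 RNA remained, were compared with shCtrl to ask whether the same genes moved. Both comparisons use the same 3 shCtrl libraries. With shPDK1#1, 0 of the 9 genes passed edgeR's adjusted threshold, beside 3.06% of all genes tested (1.62% higher and 1.44% lower), 0 passed with DESeq2, and 1 (SNAI2) had an unadjusted p under 0.05. With shPDK1#2, 6 of the 9 passed, beside 26.2% of all genes tested (12% higher and 14.2% lower). TWIST1, SNAI2 and FN1 were higher and TWIST2, ZEB1 and PRRX1 lower. The median size of the log2 fold change over the 9 genes was 0.055 with shPDK1#1 and 0.23 with shPDK1#2, against 0.10 and 0.17 over all genes tested. The libraries of shPDK1#1 and shCtrl did not overlap for 2 of the 9 genes (19.3% of all genes), and those of shPDK1#2 and shCtrl for 6 (39.5%).

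SNAI2 had 38.2, 39.8 and 42.2 CPM in shCtrl, 51.2, 44.3 and 47.0 CPM in shPDK1#1 and 53.3, 47.9 and 54.1 CPM in shPDK1#2. Both hairpin groups lay above shCtrl without overlap, by a log2 fold change of 0.24 with shPDK1#1 (SE 0.079, adjusted p = 0.10) and 0.37 with shPDK1#2 (SE 0.078, adjusted p = 0.000676). SNAI1 had 11.1, 10.02 and 8.80 CPM in shCtrl, 8.69, 8.78 and 7.85 CPM in shPDK1#1 and 10.2, 13.5 and 11.5 CPM in shPDK1#2. The log2 fold changes of SNAI1 against shCtrl had opposite signs, -0.25 (interval -0.57 to 0.07) and 0.23 (interval -0.07 to 0.54), and neither passed the threshold.

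ZEB1 had 80.2, 90.3 and 88.8 CPM in shCtrl, 95.8, 87.0 and 87.0 CPM in shPDK1#1 and 74.2, 66.2 and 69.0 CPM in shPDK1#2. The shPDK1#2 libraries were under both other groups, with a log2 fold change of -0.31 against shCtrl (SE 0.065, adjusted p = 0.000753), while that of shPDK1#1 was 0.05 (interval -0.08 to 0.19). ZEB2 had 43.1, 39.2 and 41.8 CPM in shCtrl and between 37.8 and 45.4 CPM in the 6 knockdown libraries. The 3 groups overlapped, and the intervals of its log2 fold change were -0.20 to 0.13 with shPDK1#1 and -0.14 to 0.19 with shPDK1#2.

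TWIST1 had 24.0, 25.6 and 20.5 CPM in shCtrl, 24.6, 28.7 and 27.6 CPM in shPDK1#1 and 29.1, 29.7 and 34.6 CPM in shPDK1#2. The shPDK1#2 libraries were all above shCtrl and those of shPDK1#1 were not, with a log2 fold change of 0.41 (SE 0.10, adjusted p = 0.00329), beside 0.21 with shPDK1#1 (SE 0.10, adjusted p = 0.358). TWIST2 had 51.4, 57.1 and 56.1 CPM in shCtrl, 42.6, 59.1 and 49.7 CPM in shPDK1#1 and 37.6, 42.7 and 40.2 CPM in shPDK1#2. Its shPDK1#1 libraries scattered across both other groups, and the log2 fold change was -0.12 (adjusted p = 0.617) with shPDK1#1 and -0.45 (SE 0.091, adjusted p = 0.00048) with shPDK1#2.

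PRRX1 had 283.3, 286.5 and 270.2 CPM in shCtrl and 246.8, 244.5 and 261.7 CPM in shPDK1#2. These groups were apart, and the fall was small (log2 fold change -0.16, SE 0.045, adjusted p = 0.00938); without shCtrl replicate 2 the adjusted p was 0.0565. In shPDK1#1, PRRX1 overlapped both other groups with 284.6, 260.7 and 284.4 CPM.

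FN1 rose slightly with shPDK1#2, from 3242, 3103 and 3150 CPM in shCtrl to 3435, 3539 and 3339 CPM (log2 fold change 0.12, SE 0.029, adjusted p = 0.00309). The libraries did not overlap, and the change was smaller than that of 63.3% of all genes tested. In shPDK1#1, FN1 overlapped shCtrl, with a log2 fold change of 0.036 (SE 0.029, adjusted p = 0.638). VIM had 5462, 5612 and 5815 CPM in shCtrl, 5289, 5753 and 5330 CPM in shPDK1#1 and 5282, 5592 and 5386 CPM in shPDK1#2. The groups overlapped, and with intervals of -0.11 to 0.02 and -0.12 to 0.01 a change of the size seen between the cultures lay outside both.

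**Figure D3:**
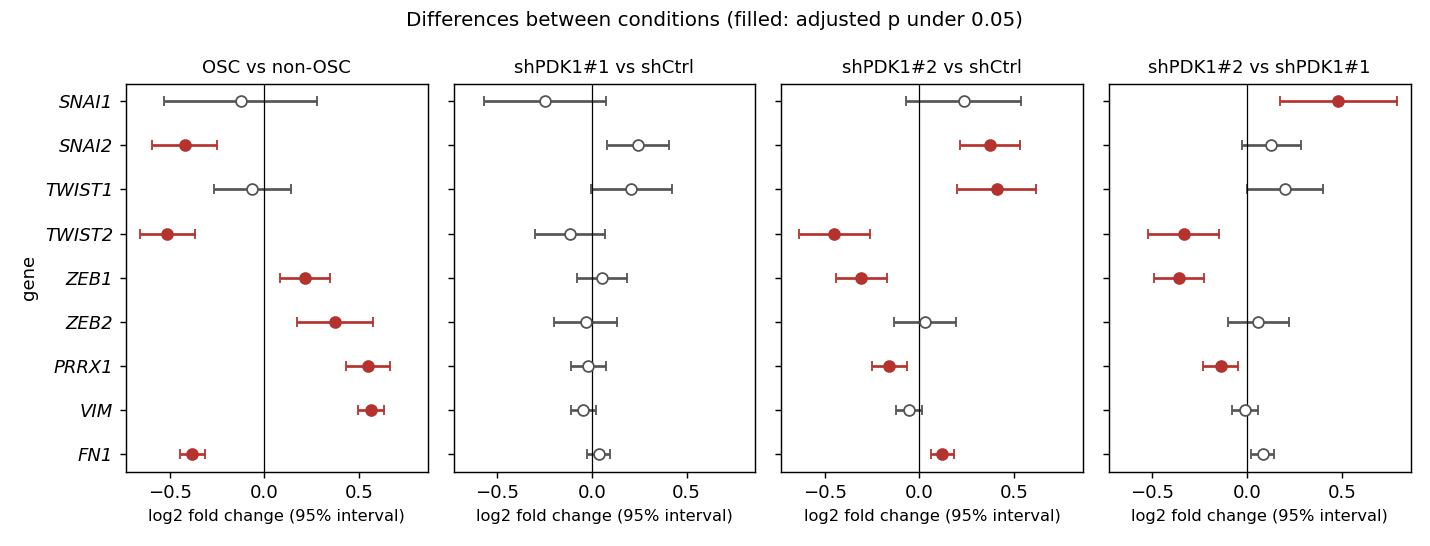
Log2 fold change of each gene in 4 comparisons, with its 95% interval on a linear axis. Filled red points passed an adjusted p of 0.05 and open grey points did not: 7 passed between OSC and non-OSC, 0 with shPDK1#1, 6 with shPDK1#2 and 4 between the hairpins.

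The hairpins were also tested against each other, since a gene past the threshold with one hairpin only is not thereby shown to differ between them. In that test 4 of the 9 genes passed, beside 16.3% of all genes tested (6.5% higher and 9.78% lower in shPDK1#2): SNAI1 was higher in shPDK1#2 than in shPDK1#1 (log2 difference 0.48, adjusted p = 0.0278), and ZEB1 (-0.36, adjusted p = 0.000196), TWIST2 (-0.33, adjusted p = 0.0118) and PRRX1 (-0.14, adjusted p = 0.0313) were lower. Hairpin libraries were fully apart in 4 of the 9 genes (SNAI1, TWIST1, ZEB1 and FN1) and in 30.7% of all genes tested, and those of TWIST2 and PRRX1 overlapped. For SNAI2 and TWIST1 the difference was 0.13 (interval -0.03 to 0.28) and 0.20 (interval -0.002 to 0.40), and neither passed. The number of genes called between the hairpins depended on single libraries: it was 2 without shPDK1#1 replicate 3, without shPDK1#2 replicate 1 or without shPDK1#2 replicate 2. Under those and all other alternatives, ZEB1 kept its call. PDK1 itself was lower with shPDK1#2 than with shPDK1#1, and the part of this difference in the values of the 9 genes was not tested.

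Ratios within a library, per length, show the paralogs, and also VIM and FN1, against each other and do not depend on the scaling of libraries. The TWIST2 to TWIST1 ratio was 2.71 ± 0.213 in non-OSCs and 1.97 ± 0.0921 in OSCs, and 2.22 ± 0.300 in shCtrl, 1.75 ± 0.162 in shPDK1#1 and 1.22 ± 0.130 in shPDK1#2 (SD, n = 3 each). Libraries of the groups were apart in all 4 comparisons, and the ratio was lower in OSCs than in non-OSCs and lower in both knockdown groups than in shCtrl. The VIM to FN1 ratio was 3.61 ± 0.144 in non-OSCs and 6.95 ± 0.311 in OSCs, 1.93 times higher, and 5.92 ± 0.281 in shCtrl, 5.59 ± 0.284 in shPDK1#1 and 5.25 ± 0.126 in shPDK1#2. The ZEB1 to ZEB2 ratio was 6.34 ± 0.675 in shCtrl and 5.02 ± 0.395 in shPDK1#2, also without overlap. With the length of the longest transcript this ratio was 3.21 ± 0.342 and 2.55 ± 0.201 (the annotated exons of ZEB2 cover 26151 bases and its longest transcript 9583), and the fold between groups does not depend on the length. The SNAI2 to SNAI1 ratio was 2.12 ± 0.349 in shCtrl, 2.93 ± 0.268 in shPDK1#1 (1.39 times higher, without overlap) and 2.33 ± 0.442 in shPDK1#2 (overlapping both). It was 3.79 ± 0.383 in non-OSCs and 3.12 ± 0.582 in OSCs, with overlap. A 2-sided exact permutation test of 3 libraries against 3 cannot go below p = 0.1, the value obtained for each of these pairs of groups whose libraries did not overlap (0.16 after adjustment over 16 comparisons).

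The culture and hairpin experiments share no library, so their differences can be set side by side. Of the 9 genes, 5 passed in both OSC against non-OSC and shPDK1#2 against shCtrl. SNAI2, FN1, ZEB1 and PRRX1 moved in opposite directions, so that shPDK1#2 differed from shCtrl in the direction in which non-OSCs differed from OSCs, and TWIST2 was lower in both. Over all genes tested, 3033 passed in both comparisons and 80.7% of them moved in opposite directions. The 4 of 5 EMT genes (80%) were thus at the background share. With shPDK1#1 in place of shPDK1#2, 380 genes passed in both comparisons and 54.2% of them moved in opposite directions. None of these were among the 9 EMT genes. VIM and ZEB2 were among the genes higher in OSCs and did not pass with shPDK1#2.

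Other genes of the program were described from lists set by their known roles. These lists were chosen with earlier results of these data known, so their counts are description only. Of 16 tested mesenchymal effectors other than VIM and FN1, 12 were higher in OSCs than in non-OSCs and 3 lower. Over all genes tested, 32.4% were higher and 31.5% lower. The median log2 fold change of the effectors was 0.43, against -0.005 over all genes. LOX, which crosslinks collagen (4.13), the matrix glycoprotein gene TNC (2.57) and the collagenase gene MMP2 (2.50) had larger differences than any of the 9 genes. With shPDK1#2, 2 of the 16 were higher and 4 lower (median -0.04), beside 12% and 14.2% of all genes. The called effectors included LOX (0.74) and TNC (-0.25). LOX was also the 1 effector called with shPDK1#1 (0.50), beside 3.06% of all genes.

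The receptors and matrix partners of fibronectin were counted beside FN1. In OSCs, where FN1 was lower, 6 of 10 were higher and 3 lower, beside 32.4% and 31.5% of all genes. SDC4 (syndecan 4, 2.02) and ITGAV (1.66) were highest and the integrin gene ITGA4 (-1.54) lowest. With shPDK1#2, where FN1 was slightly higher, 8 of 9 tested were lower and 0 higher, beside 14.2% of all genes that were lower, and their median log2 fold change was -0.30 against 0.008 over all genes. They include SDC4 (-0.64), ITGA5, the alpha subunit of the classical fibronectin receptor (-0.49), and ITGB3 (-0.74), for which 32.4% of the sequence is shared with a readthrough gene and the value is uncertain. With shPDK1#1, ITGB3 (-0.47) and FBLN1 (-0.21) were called lower, beside 1.44% of all genes.

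**Figure D4:**
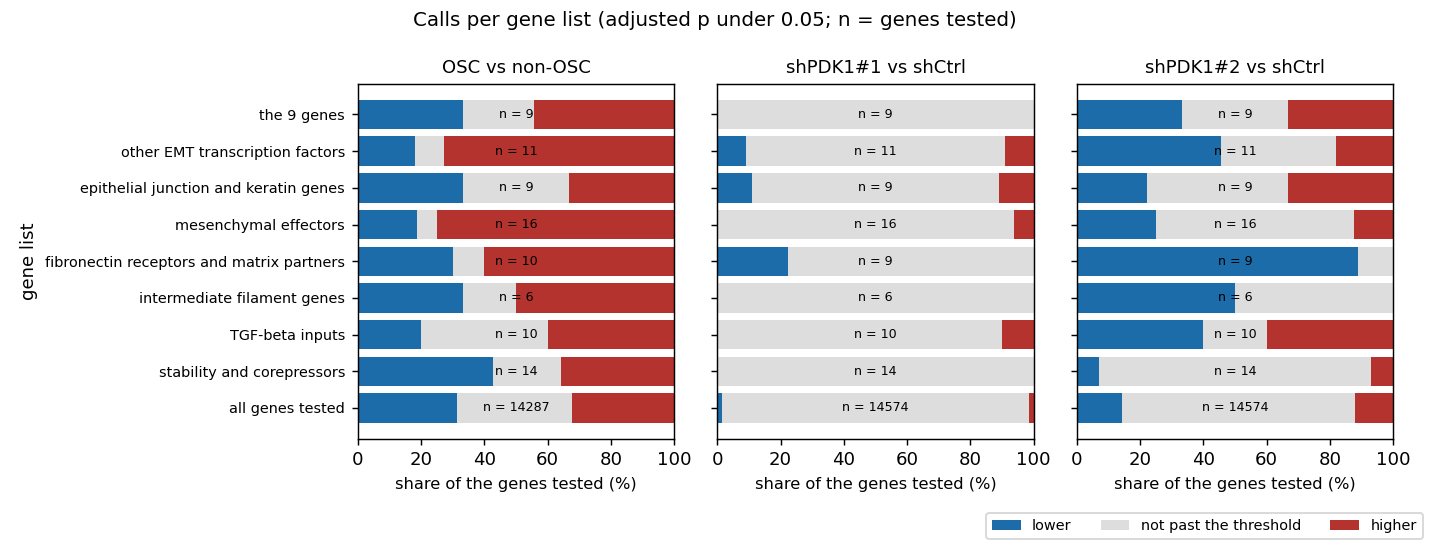
Share of the tested genes of each list that were lower (blue), not past the threshold (grey) or higher (red) at an adjusted p under 0.05, in 3 comparisons, with the number tested in each bar and all genes tested at the bottom. With shPDK1#2, 8 of 9 fibronectin receptors and partners are lower, while the 9 genes are split 3 and 3.

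The remaining EMT factors were higher in OSCs in 8 of 11 tested and lower in 2, led by SOX4 (1.59), HMGA2 (1.37) and FOXC2 (1.22). The shares over all genes beside this and the following lists were 32.4% higher and 31.5% lower in OSCs, 1.62% and 1.44% with shPDK1#1, and 12% and 14.2% with shPDK1#2. With shPDK1#2, 5 of the 11 were lower, including FOXC1 (-0.51) and HMGA2 (-0.33), and 2 higher, including FOXC2 (0.34). FOXC2 was also higher with shPDK1#1 (0.24), where TCF4 was lower (-0.21). Genes of the TGF-beta pathway, which induces several of the 9 factors, gave 4 higher and 2 lower of 10 in OSCs, 1 higher with shPDK1#1, and 4 higher and 4 lower with shPDK1#2. SMAD7, the inhibitor that TGF-beta signalling itself induces, was higher with both hairpins (0.37 and 0.89). SKIL (-0.48) and TGFBR1 (-0.43) were lower with shPDK1#2. Of 14 genes that control the stability of SNAIL and TWIST proteins or act as their corepressors, 5 were higher and 6 lower in OSCs, 0 were called with shPDK1#1 (0 also at an unadjusted p under 0.05), and 2 with shPDK1#2, of which GSK3B (-0.23) was the lower one. Among 6 tested intermediate filament and linker genes, LMNA (1.29) and PLEC (0.75) were higher and LMNB2 (-1.003) lower in OSCs, and PLEC (-0.41), LMNA (-0.39) and SYNM (-0.24) were lower with shPDK1#2.

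CDH1, the E-cadherin gene that SNAIL and ZEB factors repress, had 0 counts in 14 libraries and 1 count in a non-OSC library, so no change in it could be measured. Of 17 epithelial junction and keratin genes, 9 were tested. In OSCs 3 were higher and 3 lower, the latter including KRT8 (-2.43) and KRT18 (-1.95). With shPDK1#2, 3 were higher, including KRT18 (0.43), and 2 lower, DSP (-0.48) and TJP1 (-0.35). Of the 10 regulators that maintain epithelial identity, KLF5 was the 1 tested between the cultures, and it was higher in OSCs (1.81). With shPDK1#2, 2 were tested: KLF5 was lower (-0.55) and GRHL1, which had 2 to 7 counts in shCtrl and 12 to 17 in shPDK1#2 and falls outside the rule for named genes, was higher (1.70, SE 0.512).

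Markers of other cell types were read beside these results. Of 8 tested fibroblast markers, 5 were higher and 1 lower with shPDK1#2 (3 and 0 with shPDK1#1), beside 12% and 14.2% of all genes (1.62% and 1.44%), led by COL3A1, which had 41 to 47 counts in shCtrl, 139 to 234 in shPDK1#1 and 817 to 971 in shPDK1#2. Their summed level was 4137 to 4212 CPM in shCtrl, 4217 to 4340 in shPDK1#1 and 3660 to 3854 in shPDK1#2, most of it COL6A3. Between the cultures it was 2628 to 2680 CPM in non-OSCs and 4271 to 4392 in OSCs, with 2 of 5 tested markers higher and 1 lower, beside 32.4% and 31.5% of all genes. Pericyte markers summed to 222.5 to 239.0 CPM in non-OSCs and 454.2 to 498.2 in OSCs (3 of 3 tested higher), and to 391.3 to 403.6 in shCtrl, 325.7 to 358.9 in shPDK1#1 and 221.3 to 262.4 in shPDK1#2 (1 of 3 lower with each hairpin). Osteoblast markers summed to 571.5 to 624.5 CPM in non-OSCs and 1558 to 1675 in OSCs, and to 2345 to 2443 in shCtrl, 2621 to 2651 in shPDK1#1 and 3672 to 3818 in shPDK1#2. Most of that sum was COL1A1 and SPP1, which were higher in OSCs (1.34 and 2.35) and with shPDK1#2 (0.51 and 0.72). Of the 5 tested osteoblast markers, these 2 were higher and 1, RUNX2, was lower in OSCs (-1.11), with a list median of -0.05, and with shPDK1#2 these 2 were higher and 0 lower, with a list median of -0.21. With shPDK1#1, 1 was higher (COL1A1, 0.19) and 0 lower. The fibroblast gene DCN had at most 9 counts in any library. The summed endothelial markers were 5.97 to 6.82 CPM in non-OSCs and 1.51 to 2.34 in OSCs, where the 1 tested marker was lower (-3.46), and at most 3.35 CPM in the hairpin experiment. The summed myeloid and lymphoid markers were at most 2.51 CPM in the culture experiment, where the 1 tested marker was lower in OSCs (-2.48), and at most 2.76 CPM in the hairpin experiment. The part of these markers in the differences of the 9 genes was not tested.

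Genes on the opposite strand overlap exons of 5 of the 9 genes, and the library kit named in the labels does not mark strand, so their reads cannot be told apart there. VIM-AS1 covers 12.7% of the VIM exons and had 38 to 84 counts per library, at most 0.156% of the VIM count. ZEB1-AS1 covers 4.58% of the ZEB1 exons and had 56 to 86 counts, up to 12.7% of the ZEB1 count. ENSG00000234961 (VIM, at most 11 counts), ENSG00000288761 (SNAI2, at most 9), ENSG00000232821 (TWIST1, at most 8) and ZEB2-AS1 (at most 1) were near 0, and ENSG00000275372 and ENSG00000277444, both in ZEB2, had 0 counts.

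Across the 6 libraries of the culture experiment, VIM and FN1 correlated at r = -0.99 and SNAI2 and TWIST2 at r = 0.96 on the log2 CPM scale, values that reflect 2 groups of 3 libraries each. Across the 9 hairpin libraries, where SNAI2 rose and TWIST2 fell with shPDK1#2, the same pairs had r = -0.36 and r = -0.84. Genes most like each member were ranked by the mean of its correlations over the 6 and over the 9 libraries, among 9846 genes with at least 10 CPM. HIC1 and MICAL3 were most like TWIST2 (0.96 and 0.95), RPL22 and POMGNT2 most like SNAI2 (0.96 and 0.96), COQ10B and PKIA most like ZEB1 (0.97 and 0.97), and SPPL2A and USP12 most like PRRX1 (0.99 and 0.98). LIFR and PTPN3 stood closest to ZEB2 (0.91 and 0.90), TRADD and MGAT1 to VIM (0.96 and 0.93), CDC25A to FN1 (0.98), and CTDNEP1 and PGAP4 to TWIST1 (0.85 and 0.84). For SNAI1, ENSG00000285756 and MEF2C led with 0.86 and 0.81, among 9847 genes. High values were common: the 99th percentile of likeness over the ranked genes ran from 0.60 for SNAI1 to 0.93 for FN1. The libraries share group and depth, so these values describe likeness and carry no test.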

How the data were processed

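RNA of 143B cells was sequenced in paired-end mode (Illumina NovaSeq). By the study's methods and the submitters' processing notes, the authors used Trimmomatic 0.39 for trimming, FastQC 0.12.1 for quality checks, STAR 2.7.11a for alignment (GRCh38.p14) and RSEM 1.3.3 for quantification. The deposited values are RSEM expected counts per gene, not normalized. RSEM splits reads that match several transcripts, so 6.85% and 6.92% of the values in the culture and hairpin tables were not whole, and they were rounded. The annotation used by the authors and the strand setting are not given in the sources used here. All 62700 identifiers matched GENCODE 44.

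The column names of the tables differ from the sample titles: columns marked 2D and 3D were read as non-OSC and OSC, and those marked con as shCtrl. Counts were tested with edgeR 4.0.16 in R 4.3.3 (TMM normalization, filterByExpr by group, quasi-likelihood test), once for the 6 culture libraries and once for the 9 hairpin libraries, with Benjamini-Hochberg adjustment over all genes tested and a threshold of 0.05. Intervals are 95% intervals of the log2 fold change. TMM factors lay between 0.981 and 1.02, and a count of 3 corresponds to between 0.267 and 0.375 CPM, which covers counting error only. No replicate pair was a duplicate: their counts gave a chi-square of 1.96 to 3.56 per degree of freedom. Within-library ratios were added after the values had been seen and tested with scipy. The tests were checked on simulated counts.

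The 9 genes and the gene lists were chosen with earlier results of these data known. All 9 genes are named. From each list and comparison, at most 3 genes are named, those with the largest absolute log2 fold change among called genes that average 10 CPM or more and whose compared libraries do not overlap. The 2 most alike genes per member, PDK1 and genes overlapping a member are also named, and markers and CDH1 are given by their counts. Some genes that these rules name are not reported here. Alternatives were a fit of the compared groups alone, a block for the replicate number, DESeq2 1.42.0, scaling by library size, no filter on low counts or a minimum of 10 counts per library, the longest transcript as length, and leaving out each library. Sequences are RefSeq's, and stretches of 75 bases were compared with GENCODE 44 transcripts. Figures were drawn with matplotlib 3.10.9.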

Additional observations from a re-analysis of the deposited data

Results flagged for a closer look

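Of the 9 genes, 4 differed between the hairpins, beside 16.3% of all genes tested. The direct test was made in the fit of the 9 hairpin libraries (quasi-likelihood F test of edgeR, Benjamini-Hochberg adjusted p). It flags genes that differ between hairpins against the same target. The log2 difference, shPDK1#2 minus shPDK1#1, was 0.48 for SNAI1 (adjusted p = 0.0278, over the alternatives other than left-out libraries up to 0.0659), -0.33 for TWIST2 (adjusted p = 0.0118), -0.36 for ZEB1 (adjusted p = 0.000196) and -0.14 for PRRX1 (adjusted p = 0.0313). SNAI1 and ZEB1 had hairpin libraries fully apart, beside 30.7% of all genes tested, and TWIST2 and PRRX1 did not. PDK1 differed in the same test by -0.50.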

How the results depend on the processing

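The calls of 7 genes between OSC and non-OSC and of 0 with shPDK1#1 held in every alternative run. With shPDK1#2, 6 were called in every alternative, and 5 to 6 when single libraries were left out, the lowest without shCtrl replicate 2, where PRRX1 was lost. Between the hairpins 3 to 5 were called, and 2 to 5 with single libraries left out. There, SNAI1 was lost with DESeq2 (adjusted p = 0.0659) and without shPDK1#1 replicate 3 or shPDK1#2 replicate 2 or 3. PRRX1 was lost with only the compared groups in the fit (0.0532) and in 4 of the fits without 1 library, and TWIST2 without shPDK1#1 replicate 2 (0.103) or shPDK1#2 replicate 1 (0.0704). FN1 was gained with DESeq2 (0.0255), with library size alone (0.0416), with the replicate block (0.0406) and without shCtrl replicate 1 or shPDK1#2 replicate 3, and the block changed no other call among the 9 genes. The labels link same-numbered libraries by number alone, and their deviations from the group means correlated at -0.0539 to 0.0948. With 3 libraries per group, these values cannot tell whether a batch was shared. The block moved the count of genes called between OSC and non-OSC from 9126 to 9420, with shPDK1#1 from 446 to 507, with shPDK1#2 from 3812 to 3943 and between the hairpins from 2374 to 2522. Leaving out single libraries, the genes called numbered 8493 to 8919, 245 to 508, 3031 to 4125 and 1721 to 2324 in the same order. For shPDK1#1 the count was 270 without shCtrl replicate 1, 282 without shCtrl replicate 2 and 245 without shPDK1#1 replicate 3.

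Of 504 refitted log2 fold changes, 481 kept direction and side of the threshold, 12 lost and 5 gained a call, and 6 changed sign, all of them uncalled and close to 0: with single libraries left out, ZEB2 ran from -0.029 to 0.076 with shPDK1#2 and from -0.072 to 0.014 with shPDK1#1, PRRX1 from -0.043 to 0.022 with shPDK1#1, and VIM from -0.032 to 0.029 between the hairpins. Where a fold change moved with a left-out library, the cause was not tested. SNAI1, the gene with the fewest counts, had standard errors of 0.148 to 0.194, and the other 8 genes at most 0.103.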
